A study of Mus musculus with 6 samples.

Results

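Insulin-like growth factors (IGFs) are small secreted proteins that act through a tyrosine kinase receptor on muscle precursors and on many other embryonic cells, where they favour growth, survival and differentiation. A family of secreted binding proteins holds IGFs in the extracellular space, keeps them from the receptor or delivers them to it, and several binding proteins also act on cells without IGF. Members of the family are made by different cells of the embryo, among them connective tissue, muscle, endothelium and epithelium. The IGF ligand genes Igf1 and Igf2, the type I receptor gene Igf1r and the binding protein genes Igfbp1 to Igfbp7 are described here in the embryonic mouse tongue. They are 10 of 18193 genes that the arrays measured with a probe set of a single gene name, and they were found by those gene symbols in the platform annotation, which gave 27 probe sets. All 10 passed the filter on dim genes.

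The tongues came from C57BL/6J mouse embryos at embryonic day 14.5 and were measured on 6 Affymetrix arrays. The 3 mutants had the genotype Tgfbr2 fl/fl; Wnt1-Cre, and the 3 controls were Tgfbr2 fl/fl without Cre, so both groups carried floxed alleles of Tgfbr2, the type II TGF-beta receptor gene, although the titles call the controls wildtype. Wnt1-Cre recombines in the neural crest, from which most connective tissue of the tongue descends, whereas the muscle fibres descend from mesoderm and keep the receptor gene. The series set out to learn how the loss of the receptor in neural crest cells leads to a small tongue. The labels do not name the litters, and p-values therefore reflect only how far these 6 samples differ. Expression is given on the log2 scale, on which a difference of 1 is a doubling, and 13645 genes were tested.

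Tgfbr2 RNA differed by -0.18 between mutants and controls on its brightest probe set (adjusted p = 0.642, limma), which does not check the labels, since the sources used here do not say which exons the probes read. Markers of skeletal muscle and of connective tissue were bright in every array, with none of the 12 and 10 genes under the filter value. Mutant array 1 stood apart from the other 5: it correlated with them at 0.9658 to 0.9782 over the tested genes, and the others correlated with each other at 0.9841 to 0.9976. It was the lowest of the 6 arrays for 6 of the 10 genes (Igf1, Igf2, Igf1r, Igfbp3, Igfbp4 and Igfbp5), so values without it are given below for each of the 10 genes. In mutant array 1 the summed signal of 12 skeletal muscle markers was 15.46, against 16.02 to 16.35 in the controls, and that of 9 endothelial markers was 10.34, against 11.11 to 11.22. Over all mutants the muscle sum was 15.46 to 16.05. Of the 12 muscle markers 11 had negative differences (median -0.542, or -0.233 without mutant array 1). The count past the adjusted threshold was 0, and 5 passed with the replicate block (limma), where 3.59% of all tested genes did. Markers of 3 other kinds of cell set all mutants above all controls. The summed signal of 9 epithelial markers was 14.32 to 14.97 in the mutants, highest in mutant array 1, and 13.96 to 14.08 in the controls (9 of 9 differences positive, median 0.596, or 0.442 without mutant array 1). That of 7 nerve and Schwann cell markers was 11.36 to 11.73 against 10.47 to 10.96 (7 of 7 positive). That of 9 macrophage markers was 11.27 to 11.38 against 11.06 to 11.22 (7 positive and 2 negative). Of the macrophage markers 5 passed the adjusted threshold, 3 higher and 2 lower (limma), where 2.14% of all tested genes passed. The part of these shifts in the IGF results was not tested, and in such bulk samples fewer cells of a type and less RNA per cell cannot be told apart.

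The binding protein genes differed among themselves, and the ligands and the receptor did not pass the test. Igfbp1 and Igfbp7 were higher in the mutants at an adjusted p under 0.05 (limma with Benjamini-Hochberg adjustment over all tested genes). Igfbp3 was lower on both of its probe sets, with an adjusted p of 0.0866 (limma). That value became 0.0457 when the replicate number was added as a block and 0.184 with sex as a covariate. Igfbp1 and Igfbp7 were 2 of 10 genes (20%), both higher, where 2.14% of all tested genes passed and 1.32% passed as higher. No member passed as lower, where 0.821% of all genes did. The unadjusted p was under 0.05 for 4 of the 10, 1 lower and 3 higher, and for 16.9% of all tested genes. With the replicate block 3 of 10 passed (3.59% of all genes), with array quality weights 4 (7.58%) and without mutant array 1 again 2 (4.91%). The median log2 difference of the 10 genes was -0.0817, or 0.081 without mutant array 1, beside 0.0159 and 0.0165 over all tested genes.

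The sequences upstream of 3 of these genes are printed because they bear on the pair that rose and on Igfbp3, which lies next to Igfbp1 and had lower values. The RefSeq promoter table (GRCm38.p6) held 14 windows for the 10 genes. Each sequence is given in the direction of its gene and covers the 250 bases before the start listed there: chr11:7197537-7197786 on the plus strand for Igfbp1, chr11:7213924-7214173 on the minus strand for Igfbp3 and chr5:77408046-77408295 on the minus strand for Igfbp7. The Igfbp3 window lies within the span of the gene in the RefSeq gene table. Capitals mark matches on either strand to the insulin response core CAAAACA, to the hypoxia response cores ACGTG and GCGTG, and to the GC box GGGCGG, none of which overlap each other in these windows.
Igfbp1: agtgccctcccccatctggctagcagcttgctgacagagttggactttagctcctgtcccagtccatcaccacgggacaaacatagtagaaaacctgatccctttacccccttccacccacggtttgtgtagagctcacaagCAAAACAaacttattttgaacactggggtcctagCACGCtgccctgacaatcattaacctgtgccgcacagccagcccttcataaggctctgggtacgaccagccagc
Igfbp3: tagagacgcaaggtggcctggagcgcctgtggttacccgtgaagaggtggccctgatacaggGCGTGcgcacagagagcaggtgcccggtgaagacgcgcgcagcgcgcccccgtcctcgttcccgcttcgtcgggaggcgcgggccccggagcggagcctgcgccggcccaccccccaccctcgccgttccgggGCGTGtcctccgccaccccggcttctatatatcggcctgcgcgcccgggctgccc
Igfbp7: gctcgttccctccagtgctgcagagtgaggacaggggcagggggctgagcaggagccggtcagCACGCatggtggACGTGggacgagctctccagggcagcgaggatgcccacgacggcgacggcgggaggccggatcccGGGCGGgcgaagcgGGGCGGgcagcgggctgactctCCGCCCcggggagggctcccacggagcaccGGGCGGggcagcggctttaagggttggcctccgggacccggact

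The insulin response core, a binding site of FOXO factors through which insulin is known to lower IGFBP1 transcription, begins 108 bases before the start of Igfbp1. Of the 14 windows of the family, 1 held it, as did 5.56% of the 32851 windows in the table. The 18 bases that begin at this core in Igfbp1 were found in 0 other windows of the table, but so long a stretch seldom recurs in any case. No other stretch was searched for beside it, so this count does not set Igfbp1 apart. The GC box was present in 5 of the 14 windows, 4 times in that of Igfbp7, and in 32.7% of all windows. The hypoxia core GCGTG was present in 6 of the 14 and in 28.2% of all windows, and ACGTG in 3 of the 14 and in 16.6% of all. Bases G and C made up 53.2% of the Igfbp1 window, against 73.2% for Igfbp3 and 74% for Igfbp7. These matches describe the letters and were not tested as sites.

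Igfbp1, a binding protein gene known for its rapid response to insulin, fasting and low oxygen, showed the largest difference of the family. Mutant arrays 1, 2 and 3 read 8.206, 8.314 and 8.064, and control arrays 1, 2 and 3 read 6.595, 4.814 and 5.167. All 3 mutants lay above all 3 controls, the mutants lay close together, and control 1 was the highest control. Mutants averaged 8.195 ± 0.13 (SD, n = 3) and controls 5.525 ± 0.94 (SD, n = 3), so that the log2 difference was 2.67 (6.36-fold, standard error 0.41, 95% interval 1.71 to 3.63, adjusted p = 0.0262, limma). Among all tested genes it ranked 139th by p-value. Because control arrays 2 and 3 lay at or under the filter value of 5.17, close to background, the size of the increase is uncertain. Without mutant array 1 the difference was 2.66 (adjusted p = 0.0284, limma). It lay between 2.31 and 3.2 when any 1 array was left out. The call was lost without mutant array 2 or 3 (adjusted p = 0.0953 and 0.0536, limma) and without control array 2 or 3 (adjusted p = 0.103 and 0.14, limma). In these 4 fits 88, 242, 16 and 19 of all tested genes passed, in that order, beside 292 with all 6 arrays. Igfbp1 has a single probe set, so no second reading of it was to hand.

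Hepatocytes, a well known source of IGFBP1, were checked through 7 measured marker genes. Their summed signal was 8.38 to 10.32 in the controls and 8.27 to 9.428 in the mutants, with overlapping groups, and 2 of the 7 (Apob and Fgb) lay under the filter value. None of the 5 tested markers passed at an adjusted or an unadjusted p under 0.05 (limma). Among these 5, Afp varied most between arrays (SD 2.02 in the controls and 1.44 in the mutants). Alb and Apoa2 lay close to the filter value of 5.17. The part of hepatocytes in the Igfbp1 result was not tested.

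Genes that report states known to induce Igfbp1 were read beside it. Of 13 tested hypoxia response genes 13 had a positive difference, beside 53.4% of all tested genes, and 3 passed, where 2.14% of all did: Ndrg1, a stress response gene, rose by 0.918, Slc2a1, the glucose transporter gene, by 0.852, and Egln3, an oxygen sensing hydroxylase gene, by 0.744 (adjusted p = 0.00911, 0.0271 and 0.0238, limma). Of 17 tested p53 target genes 12 had positive and 5 negative differences and 2 passed, Pmaip1 and Bbc3, both genes of cell death, which rose by 2.64 and 0.558 (adjusted p = 0.00298 and 0.0264, limma), and 4 passed with the replicate block. Of 12 tested genes of the amino acid stress response 7 had positive and 5 negative differences and 1 passed, the mTOR inhibitor gene Ddit4, which rose by 0.956 (adjusted p = 0.0163, limma), and 2 passed with the block. The medians of the 3 lists were 0.229, 0.178 and 0.0802, beside 0.0159 over all tested genes. Without mutant array 1 the medians were 0.277, 0.105 and 0.058, and 3 hypoxia genes, 4 p53 targets and 3 amino acid stress genes passed. Without mutant array 2 these counts were 1, 1 and 0, and without control array 1 they were 1, 1 and 1. Without mutant array 3 the p53 count was 1. When either control array 2 or control array 3 was left out, 0 hypoxia genes, 1 p53 target and 0 amino acid stress genes passed. Calls over all tested genes moved as well, from 292 to 670, 88 and 242 without mutant arrays 1, 2 and 3. They numbered 142, 16 and 19 without control arrays 1, 2 and 3. The part of these states in the Igfbp1 result was not tested.

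Igfbp7, which encodes a secreted protein of blood vessel walls and connective tissue that binds IGF weakly and lacks the typical carboxy-terminal domain of the family, was the other gene that rose. On its brightest probe set mutant arrays 1, 2 and 3 read 10.21, 10.52 and 10.56, and the controls 9.509, 9.626 and 9.745. The groups did not overlap, and mutant array 1 was the lowest mutant. The means were 10.43 ± 0.19 and 9.627 ± 0.12 (SD, n = 3 per genotype), a log2 difference of 0.806 (1.75-fold, standard error 0.12, 95% interval 0.519 to 1.09, adjusted p = 0.0256, limma). The difference was 0.915 without mutant array 1 (adjusted p = 0.00412, limma) and between 0.741 and 0.865 without any other array, where the adjusted p lay between 0.053 and 0.141 and the call was lost each time. The other probe sets of Igfbp7 were dimmer and differed by 0.13 and 0.424, and the mean of all 3 gave 0.453 (adjusted p = 0.0335, limma), so the size of the increase depended on the probe set. Of 9 endothelial markers, 8 had negative differences, with a median of -0.376, or -0.0442 without mutant array 1. None of them passed at an adjusted p under 0.05 (limma) and the unadjusted p was under 0.05 for 1. Of 10 connective tissue markers, 3 had positive differences, with a median of -0.199, or -0.0599 without mutant array 1, and 2 passed. Lum, which encodes the collagen-binding proteoglycan lumican, rose by 0.774 (adjusted p = 0.0152, limma), and Dcn, which encodes decorin, by 0.648 (adjusted p = 0.0238, limma). The part of endothelial and connective tissue cells in the Igfbp7 result was not tested.

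**Figure D1:**
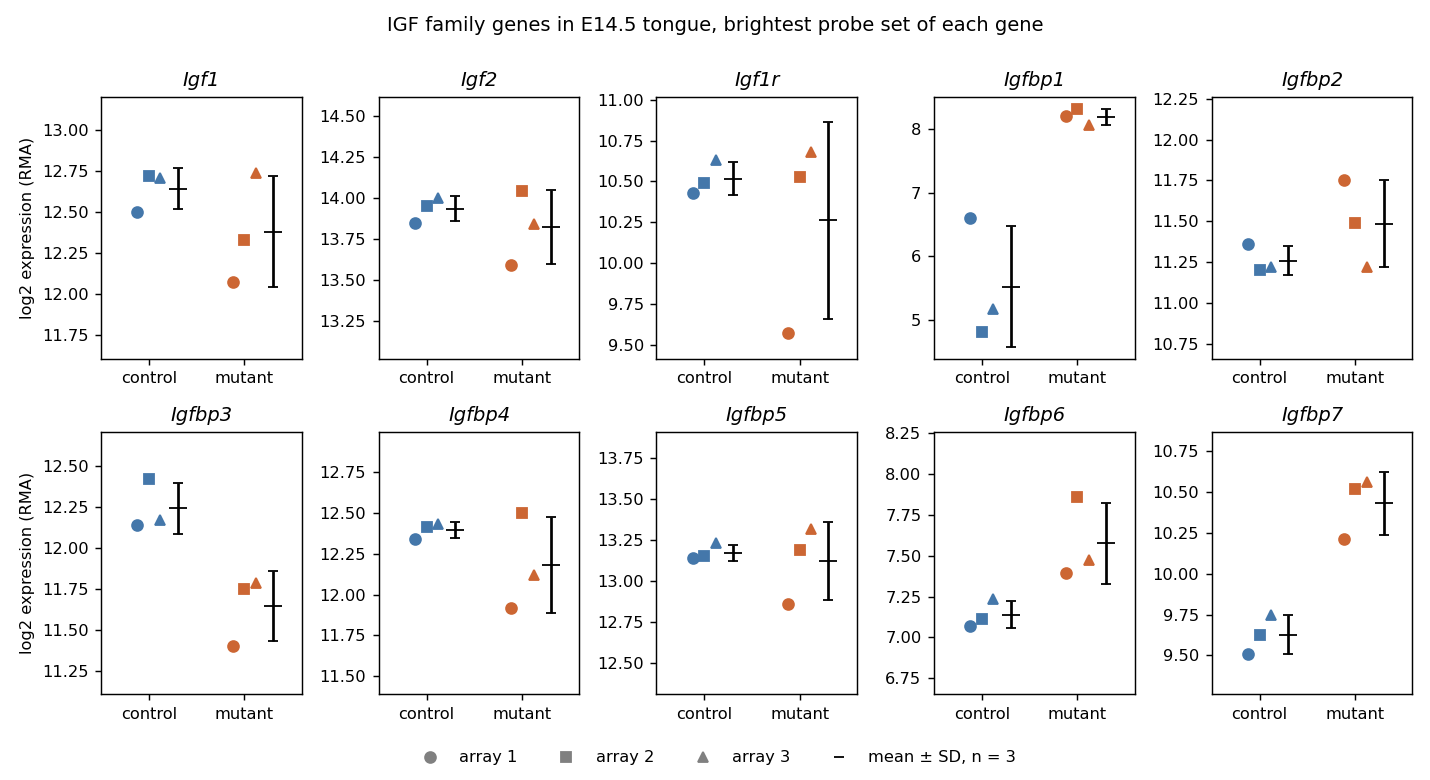
Log2 expression of the 10 genes by genotype, 1 panel per gene with its own axis range, with a symbol per array and the mean ± SD (n = 3) beside each group. Mutants lie above controls without overlap for Igfbp1, Igfbp6 and Igfbp7 and below them for Igfbp3, and mutant array 1 is the lowest point for 6 genes.

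Igfbp3, the main IGF carrier of the adult circulation and a gene that TGF-beta is known to induce in many cell types, had lower values in the mutants on both of its probe sets. The brighter gave 11.4, 11.75 and 11.79 for mutants 1, 2 and 3 and 12.14, 12.42 and 12.17 for the controls. The dimmer gave 10.03, 10.54 and 10.5 in the mutants and 10.98, 11.14 and 11.13 in the controls. On neither did the groups overlap, and mutant array 1 was the lowest on both. The brighter differed by -0.596 (standard error 0.14, 95% interval -0.915 to -0.278), with an adjusted p of 0.0866 that missed the threshold (limma). The dimmer differed by -0.728, and the mean of both gave -0.662 with an adjusted p of 0.0509 (limma). With the replicate block the adjusted p of the gene was 0.0457 and with array quality weights it was 0.0296 (limma). Without mutant array 1 the difference was -0.472 (adjusted p = 0.0515, limma). Other fits lay further from the threshold. The adjusted p was 0.184 with sex as a covariate and 0.162 and 0.0798 without mutant arrays 2 and 3 (limma). It was 0.169, 0.348 and 0.271 without control arrays 1, 2 and 3 (limma).

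Igfbp1 and Igfbp3 are neighbours on mouse chromosome 11, where the RefSeq gene table (GRCm38.p6) places them 3.54 kb apart, Igfbp1 at 7197787 to 7202546 and Igfbp3 at 7206086 to 7215498. Their log2 differences had opposite signs, 2.67 and -0.596, and on both genes the 3 mutants lay on one side of the 3 controls. The nearest tested gene beyond Igfbp1 was Adcy1, an adenylate cyclase gene 19.3 kb away, at -0.122 (adjusted p = 0.81, limma). Beyond Igfbp3 it was Tns3, a focal adhesion gene as far as 1220 kb away, at -0.214 (adjusted p = 0.659, limma). Igfbp2 and Igfbp5 form a like pair on chromosome 1, 5.59 kb apart, with differences of 0.227 and -0.0549, neither of which passed.

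Igfbp6, whose product prefers IGF-II over IGF-I, gave 7.396, 7.855 and 7.473 for mutants 1, 2 and 3 and 7.071, 7.113 and 7.233 for the controls. The mutants all lay above the controls, with a log2 difference of 0.436 (standard error 0.14, 95% interval 0.12 to 0.751). Its adjusted p of 0.166 did not pass (limma), nor did the 0.0662 without mutant array 1 (a difference of 0.525), whereas the 0.0358 with array quality weights did. Over the 10 genes the groups did not overlap for 4 (40%): above the controls for Igfbp1, Igfbp6 and Igfbp7 and below for Igfbp3. Among all tested genes, 25.1% had such non-overlapping groups, 13.6% with the mutants above and 11.5% with the mutants below.

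The other binding protein genes gave no call. Igfbp2, a binding protein gene of embryonic epithelia and mesenchyme, was 11.75, 11.49 and 11.22 in the mutants and 11.36, 11.2 and 11.22 in the controls, so the groups overlapped and mutant array 1 was the highest of all 6. Its difference was 0.227 (adjusted p = 0.457, limma), or 0.0965 without mutant array 1. Igfbp4, which encodes a binding protein that mostly restrains IGF action and is cleaved by the protease PAPP-A, was read by 6 probe sets, all with lower means in the mutants, by differences from -0.427 to -0.214. Its brightest was 11.92, 12.5 and 12.12 in the mutants and 12.34, 12.41 and 12.43 in the controls, a difference of -0.214 (95% interval -0.561 to 0.133, adjusted p = 0.506, limma), or -0.0852 without mutant array 1. The dimmest pair of Igfbp4 probe sets, at control means of 9.175 and 7.734, did not overlap between the groups and differed by -0.427 and -0.345 (adjusted p = 0.259 and 0.179 over all probe sets, limma). These 6 probe sets read the same transcripts and are not independent.

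Igfbp5, a binding protein gene with high expression in developing muscle and connective tissue, was very bright and nearly level. Its brightest probe set gave 12.86, 13.19 and 13.32 in the mutants and 13.14, 13.15 and 13.23 in the controls, and the mutants spread to both sides of the controls. The difference was -0.0549 (95% interval -0.357 to 0.247, adjusted p = 0.861, limma), and 0.0773 without mutant array 1. Its other probe set differed by -0.308 (adjusted p = 0.508 over all probe sets, limma).

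The ligand genes were among the brightest readings of the arrays and did not pass. Igf2, the imprinted fetal growth factor gene, was 13.59, 14.04 and 13.84 for mutants 1, 2 and 3 and 13.85, 13.95 and 14 for the controls, with overlapping groups. The difference was -0.109 (95% interval -0.406 to 0.188, adjusted p = 0.701, limma), and 0.00713 without mutant array 1. A second, dimmer Igf2 probe set gave 9.371, 8.492 and 10.04 in the mutants and 9.995, 10.36 and 9.783 in the controls. Its difference of -0.745 had a 95% interval of -1.56 to 0.0751 (adjusted p = 0.418 over all probe sets, limma), and here mutant array 2 was the lowest. A signal as high as that of the brighter Igf2 probe set, higher than 99.7% of genes on these arrays, leaves less room to show a difference if its probes are near saturation, which was not tested.

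Igf1, the ligand gene best known for muscle growth, had negative differences on all 4 of its probe sets, from -0.263 to -0.155. The brightest gave 12.07, 12.33 and 12.74 in the mutants and 12.5, 12.72 and 12.71 in the controls, where mutant array 3 was level with the controls and mutant array 1 was the lowest. The difference was -0.263 (95% interval -0.662 to 0.136, adjusted p = 0.476, limma), and -0.11 without mutant array 1. The dimmest probe set of Igf1 had all 3 mutants (9.914, 9.772 and 10.04) below all 3 controls (10.06, 10.18 and 10.1), by 0.207 on average, with an adjusted p of 0.414 over all probe sets (limma).

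Igf1r, which encodes the receptor for both ligands, was low in 1 mutant on its brightest probe set. That probe set gave 9.575, 10.53 and 10.68 for mutants 1, 2 and 3 and 10.43, 10.49 and 10.63 for the controls. Mutant arrays 2 and 3 lay at the level of the controls there. The difference of -0.257 (95% interval -0.886 to 0.371, adjusted p = 0.664, limma) became 0.0847 without mutant array 1. Of the 5 Igf1r probe sets 4 had negative differences, down to -0.467, and the dimmest had a positive one of 0.205, none of them past the threshold. The next brightest gave 9.403, 10.2 and 10.66 for mutants 1, 2 and 3 and 10.41, 10.61 and 10.65 for the controls. On it mutants 1 and 2 both lay below all controls, so the count of low mutants depended on the probe set.

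**Figure D2:**
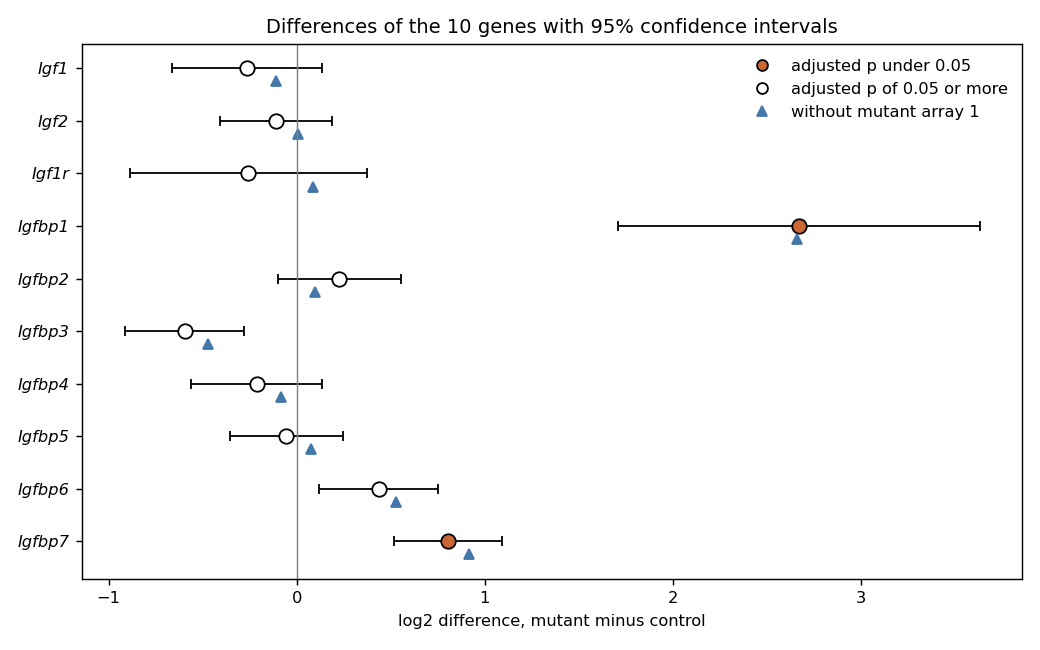
Log2 difference, mutant minus control, of the 10 genes (circles) with 95% confidence intervals, filled where the adjusted p is under 0.05, and the difference without mutant array 1 (triangles). Igfbp1 and Igfbp7 are filled. The signs of Igf2, Igf1r and Igfbp5 change without mutant array 1.

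Over all 27 probe sets, 20 had negative differences and 2 passed the threshold among the 45037 probe sets tested together, those of Igfbp1 and Igfbp7 (adjusted p = 0.0383 and 0.037, limma), where 0.748% of all probe sets passed. The 3 mutants lay to one side of the 3 controls on 9 of the 27 (33.3%), beside 20% of all probe sets: below on 5, from Igfbp3, Igfbp4 and Igf1, and above on 4, from Igfbp1, Igfbp6 and Igfbp7. Within a gene the probe sets pointed the same way for each gene with several, other than Igf1r.

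**Figure D3:**
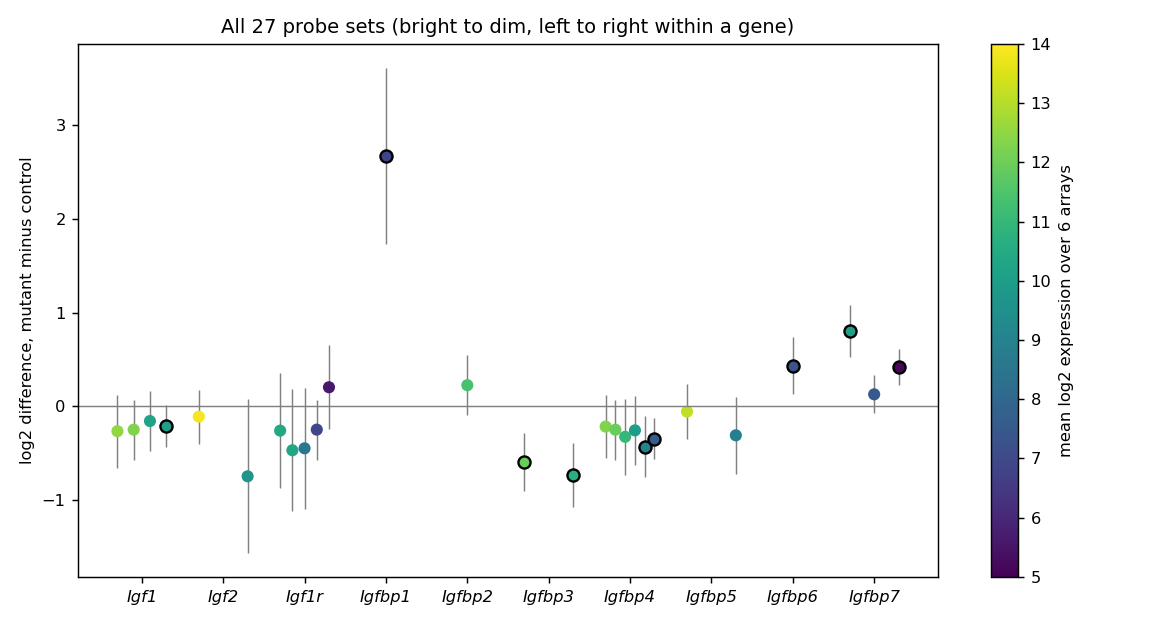
Log2 difference, mutant minus control, of all 27 probe sets by gene, with 95% confidence intervals; colour gives the mean log2 expression over the 6 arrays, and black rims mark the 9 probe sets whose groups do not overlap. Both Igfbp3 probe sets lie below 0 and all 3 of Igfbp7 above it.

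Around the family, 3 of 42 tested genes of IGF transport, cleavage and signalling passed (2 higher, 1 lower), where 2.14% of all tested genes did. The list named 49 genes, of which 5 were not analysed here and 2 (Irs4 and Adam28) were too dim to test. Its median log2 difference was -0.127, or 0.00498 without mutant array 1. The count was 7 without mutant array 1 (6 higher), 1 without mutant array 2 or control array 1, and 0 without control array 2 or 3.

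Htra1, which encodes a secreted protease that can cleave IGF binding proteins and restrain TGF-beta family signals, rose the most. Its values were 10.28, 10.7 and 10.57 in the mutants and 9.242, 9.303 and 9.281 in the controls. All mutants were above all controls, and the difference of 1.24 (2.36-fold, standard error 0.121) had an adjusted p of 0.00772 (limma). Leaving out control array 2 or 3 gave an adjusted p of 0.0555 or 0.0545.

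Grb14, which encodes an adaptor that binds the insulin receptor and dampens its signal, was 8.125, 8.633 and 8.557 in the mutants and 7.48, 7.48 and 7.462 in the controls. The controls were almost level and the mutants all higher, by 0.964 (1.95-fold, standard error 0.14, adjusted p = 0.023, limma). Averaged over its probe sets, Grb14 was higher by 0.49 (adjusted p = 0.0471, limma). The call was kept without mutant array 1 (a difference of 1.12, adjusted p = 0.000913, limma) and lost without any other single array (adjusted p between 0.0515 and 0.127, limma).

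Stc1, which encodes stanniocalcin, a secreted glycoprotein that can inhibit the protease PAPP-A, was the gene that fell. It gave 7.186, 7.297 and 7.721 in the mutants and 8.095, 8.444 and 8.221 in the controls, and the groups did not overlap. The difference was -0.852 (a fold of 1.8 lower, standard error 0.161, adjusted p = 0.0476, limma), and the call was lost with sex as a covariate (adjusted p = 0.118), under a filter on the dimmer 50% of genes (0.056), in a fit of single probe sets (0.06), without mutant array 2 (0.158) and without control array 1, 2 or 3 (0.1, 0.214 and 0.195, limma). As the mean of its probe sets the difference was -0.453 (adjusted p = 0.0419, limma). The gene of the protease itself, Pappa, differed by -0.237 (adjusted p = 0.705, limma).

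Of the genes inside the cell, none other than Grb14 passed. Pik3r3, a regulatory subunit gene of PI3 kinase, had the smallest p of the rest, with a difference of -0.399 (adjusted p = 0.13, limma). Foxo1, the transcription factor gene whose product binds the insulin response core, was 8.871, 9.391 and 9.352 in the mutants and 8.779, 8.771 and 8.861 in the controls. Its groups did not overlap, and the difference of 0.401 had an adjusted p of 0.232 (limma). Igf2r, the clearance receptor gene of IGF-II, differed by -0.495 (adjusted p = 0.418, limma). Irs1, the docking protein gene of the insulin receptor and the type I IGF receptor, differed by -0.455 (adjusted p = 0.309, limma). Foxo1, Igf2r, Irs1 and Pappa were picked out for their roles with their values known.

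**Figure D4:**
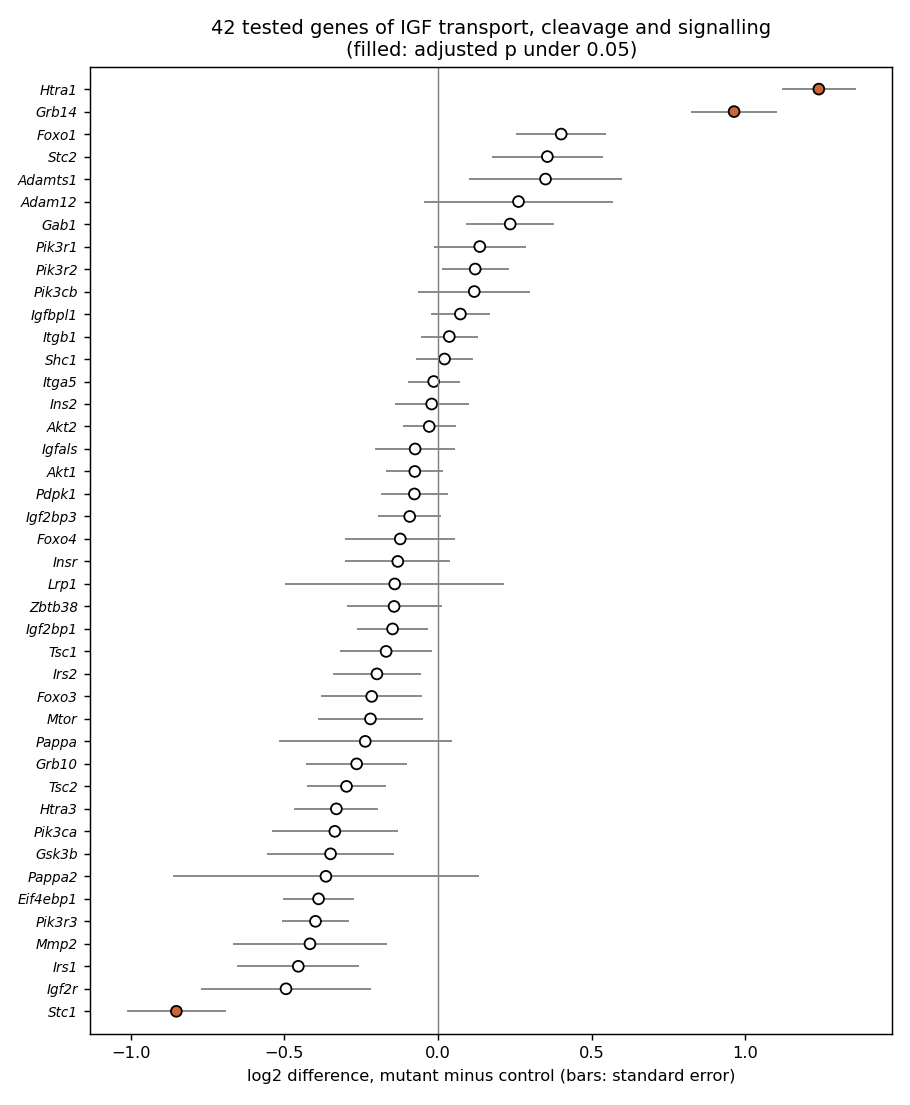
Log2 difference, mutant minus control, of 42 tested genes of IGF transport, cleavage and signalling, sorted by size, with standard errors as bars; filled circles have an adjusted p under 0.05. Htra1 and Grb14 are filled at the top and Stc1 at the bottom, and 29 of the 42 lie below 0.

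TGF-beta targets were read beside the family because several Igfbp genes are among the genes this signal is known to induce. Of 13 tested targets 10 had negative and 3 positive differences, beside 53.4% positive over all tested genes, with a median of -0.212, or -0.0744 without mutant array 1. The count past the adjusted threshold was 0 (limma). The unadjusted p was under 0.05 for 6, of which 5 were lower (16.9% of all tested genes). With the replicate block 2 passed, where 3.59% of all tested genes did: Tgfbi and Fn1, both matrix genes (adjusted p = 0.0211 and 0.0125, limma). Tgfbi differed by -1.62 with groups that did not overlap, and Fn1 by -1.11 with groups that did. Without the block their adjusted p was 0.0618 and 0.232 (limma).

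The tested genes whose profile over the 6 arrays lay closest to that of Igfbp1, by the root mean square distance between values relative to the control mean, were Pmaip1, Fam162b and Shisa3, at 0.45, 0.462 and 0.559 on the log2 scale, where the median distance of all tested genes was 1.96. Closest to Igfbp7 were Scara3, Hsd17b11 and Plxdc1, at 0.079, 0.0822 and 0.0895, where the median was 0.591. These likenesses describe 6 arrays, and genes with a like difference between the genotypes are close by that fact alone.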

How the data were processed

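RNA of 6 mouse tongues, 3 per genotype, was measured on Affymetrix arrays. The deposited table holds log2 values that the authors made with RMA, per the submitters' processing notes (no version given). RMA understates changes of dim probe sets, and quantile normalization hides a change common to most genes. Precision is set by the number of arrays: standard errors of tested genes had a median of 0.117. Of 45101 probe sets, 64 were controls and 34945 had 1 gene symbol. The probe set with the highest mean stood for a gene, genes in the lowest 25% (under 5.17) were left out, and limma 3.58.1 (R 4.3.3, moderated 2-sided test from lmFit and eBayes) compared the genotypes, with Benjamini-Hochberg adjustment and a threshold of 0.05. All 45037 non-control probe sets were also fitted on their own. In simulated data with 13645 genes, 79% of 100 genes changed by 1 and 95% of 100 changed by 2 on the log2 scale were recovered, with 8 false calls. The simulated noise was independent between genes and arrays, and no array stood apart as mutant array 1 did. Recovery in the real arrays was therefore not measured.

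The members and lists were chosen with earlier results of these data known. Named genes are the 10 members, Tgfbr2, list genes past the threshold (up to 4 a list outside the IGF pathway list), the 4 pathway genes with the smallest p, the nearest profiles and the chromosomal neighbours. The alternatives were other filters, probe set rules, scalings and fits, a sex covariate from Xist and Y-linked genes, a replicate block and each array left out. By the sex genes 2 mutants and 1 control were Xist-high, and 1 mutant and 2 controls were Xist-low. Sex was thus not balanced between the genotypes. Same-numbered arrays deviated together (correlations of 0.309, 0.105 and 0.206, each over 0.1). By a fixed rule the title numbers were therefore taken as a possible pairing, which entered the replicate block only. Mutant array 2 with control array 3 (0.196) and mutant array 3 with control array 2 (0.147) also exceeded 0.1. The main fit held no block, so p-values and intervals given without mention of the block leave such a pairing out. Promoter windows and gene positions are from RefSeq. Figures were drawn with matplotlib 3.10.9.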

Additional observations from a re-analysis of the deposited data

How the results depend on the processing

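Over 158 refits of single members, 142 kept the direction and the side of the threshold, 9 lost a call (Igfbp1 and Igfbp7, each time with an array left out), 3 gained one and 4 reversed. The reversals were those of Igf2, Igf1r and Igfbp5 without mutant array 1 and of Igfbp5 with array quality weights (0.0437). With single arrays left out, Igf2 ranged from -0.215 to 0.00713, Igf1r from -0.466 to 0.0847, Igfbp5 from -0.152 to 0.0773 and Tgfbr2 from -0.303 to 0.0143.

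The number of members called was 1 with the lowest 50% of genes left out, where Igfbp1 and Igfbp6 are too dim to be tested, and 4 with array quality weights (Igfbp1, Igfbp7, Igfbp3 and Igfbp6). It lay between 0 and 2 with single arrays left out, as did the number of member probe sets called. With sex as a covariate both calls held (Igfbp1 2.43, adjusted p = 0.0452, Igfbp7 0.857, adjusted p = 0.0445, limma).

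Over all tested genes the count of 292 became 151 with the lowest 50% left out, 1034 with array quality weights, 490 with the replicate block, 135 with the sex covariate, 549 at an adjusted p under 0.1, and 16 to 670 with single arrays left out. The lowest counts with an array left out, 16 and 19, came without control arrays 2 and 3, and the highest without mutant array 1. The pathway list had 7 calls with array quality weights and 0 to 7 with single arrays left out. With the replicate block 4 p53 targets, 2 amino acid stress genes and 2 TGF-beta targets passed, and among the members the block changed the call of Igfbp3 alone. With single arrays left out the hypoxia list had 0 to 4 calls, the p53 list 1 to 4, the amino acid stress list 0 to 3 and the TGF-beta target list 0 to 1. Some of these fits held fewer genes or arrays, and the cause of the shifts was not tested. Igfbp1 in the controls and the dimmest Igfbp7 probe set lie near background, which limits the size that can be read for them.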
